A study of Mus musculus with 6 samples.

Results

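The enzymes described here make glutamine, break it down to glutamate, or pass its nitrogen and carbon on to amino acids and nucleotides. They are Glul, Gls2, Glud1, Got1, Got2, Gpt2, Aldh18a1, Ppat and Cad, 9 of the 53445 loci in the deposited table. Each was found by its symbol, and for Gls2 and Got2, which are listed at more than 1 locus, the longest locus was taken. The list was chosen by function as the steps downstream of glutamine import. Its members were not picked by their own values, but the choice was made with earlier results of these data known.

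RNA-Seq had been performed on LSK cells, the Lin-Sca+Kit+ fraction of bone marrow that holds the stem cells and early progenitors of the blood. OgaVav-Cre mice lack Oga, the enzyme that removes O-GlcNAc from proteins, in the blood lineage, because the Vav-iCre transgene, active from early blood development, recombines a floxed Oga allele (Oga fl/fl). There were 3 OgaVav-Cre and 3 wildtype libraries, each labelled as a separate female mouse of about 12 weeks on the C57BL/6 background, with at least 20000 sorted cells per library. The sources used here do not state whether the wildtype mice carried the floxed allele or Cre. All of these were bulk samples, so fewer cells of a type and less RNA per cell cannot be told apart.

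Glutamine is the main carrier of nitrogen between tissues. Glutaminase turns it into glutamate, which feeds the tricarboxylic acid cycle as 2-oxoglutarate or hands its amino group to other amino acids, and dividing cells also spend glutamine directly on purine and pyrimidine rings and on the hexosamine pathway that supplies O-GlcNAc. Blood stem cells and progenitors rely on these routes for nucleotides and for mitochondrial fuel.

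Read totals were 25190298, 26078093 and 27064389 reads for the 3 OgaVav-Cre libraries against 20600489, 19318056 and 21684561 reads for the wildtype ones, so the OgaVav-Cre libraries were all deeper. Levels are therefore given as CPM, the counts scaled to a common library size by edgeR's TMM method, and 3 reads, taken as the floor, equal 0.111 to 0.155 CPM depending on the library. Oga itself, listed as Mgea5, had 104, 109 and 110 reads in the OgaVav-Cre mice against 3164, 2970 and 2736 in the wildtype mice, in the direction the labels give. All 10 LSK markers were read in every library, and their summed level of 1153 to 2459 CPM in OgaVav-Cre overlapped that of 1521 to 2695 CPM in wildtype cells. The summed level of 10 plasma cell genes ran from 12123 to 112824 CPM in OgaVav-Cre and from 12950 to 56068 CPM in wildtype libraries, and the 3 immunoglobulin loci Ighm, Igkc and Igj took 9.88, 4.14 and 1.17% of the reads in OgaVav-Cre replicates 1 to 3 and 2.05, 5.48 and 1.36% in wildtype replicates 1 to 3. The 8 B cell precursor genes summed to 250.2 to 1137 CPM against 277 to 1012 CPM, the 6 erythroid genes to 224 to 2340 against 415 to 704 CPM, the 7 granulocyte and monocyte genes to 605 to 1661 against 1056 to 1158 CPM and the 5 T and NK cell genes to 21.9 to 126 against 32.7 to 79.2 CPM. The 4 megakaryocyte genes summed to 34.2 to 54.6 against 43.0 to 51.4 CPM, and the 4 stromal and endothelial genes to 122 to 181 against 113 to 142 CPM. No gene of these lists was called, and of the defining genes only Ly6g, a granulocyte gene, was at 0 reads in a library. All 10 plasma cell genes had a log2 fold change above 0, against 50.5% of all loci, each with overlapping libraries. Of the 10 LSK genes 4 were above 0, with Ly6a at 1.03 (unadjusted p of 0.0558 in edgeR). Cd4, Ncr1 and Cxcl12, at 1.41, -1.45 and 0.84, had an unadjusted p under 0.05 in edgeR, as 10.6% of all loci did.

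None of the 9 enzymes passed the test between OgaVav-Cre and wildtype cells. A locus was called at an adjusted p under 0.05 and an absolute log2 fold change above 1 in edgeR's quasi-likelihood test, and 7 of the 22032 loci tested were, or 0.0318%, of which 1 was higher (0.00454%) and 6 were lower (0.0272%) in OgaVav-Cre cells. At an unadjusted p under 0.05, which 10.6% of all loci reached (4.38% higher and 6.27% lower in OgaVav-Cre cells), there was again no member, and their adjusted p-values ran from 0.502 to 0.932. All 9 passed the filter on low counts. The log2 fold changes lay above 0 for 6 members and below 0 for 3, against 50.5% of all loci above 0, and their median was 0.20 against 0.0041 over all loci. The libraries of the genotypes did not overlap for 1 member, Gls2, which was lower in OgaVav-Cre cells. Over all loci 17.5% did not overlap, 7.5% being higher and 9.97% lower in OgaVav-Cre cells. Every 95% interval included 0, and for 7 of the 9 it stayed within a 2-fold change in either direction, so that a doubling or a halving of these 7 lay outside the interval. With 3 libraries against 3, an exact permutation test of a single gene could not have given a p below 0.1.

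**Figure D1:**
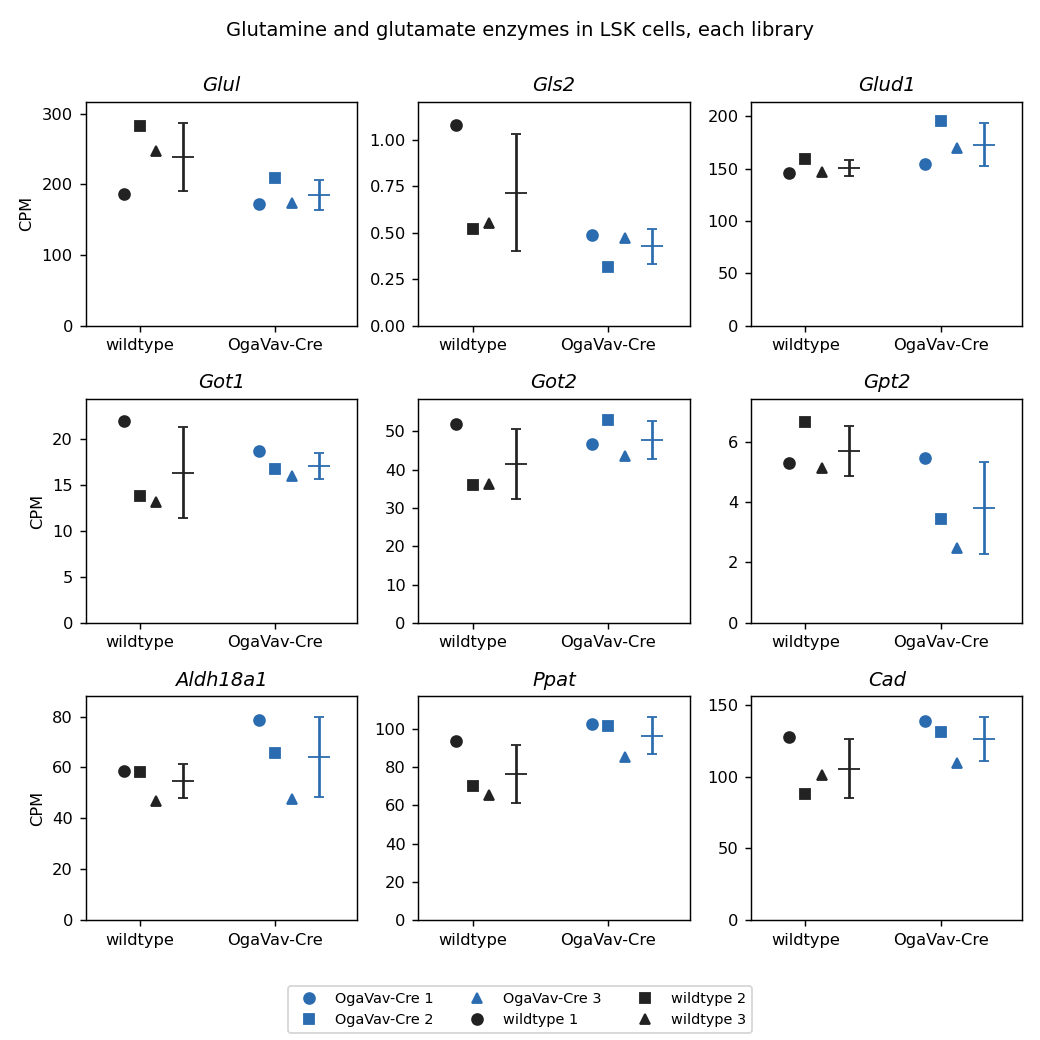
Level of each enzyme in CPM (vertical axis, starting at 0) in the 3 wildtype libraries (black) and the 3 OgaVav-Cre libraries (blue), with the mean and SD of each genotype beside the points. The points of the genotypes overlap in all panels except that of Gls2, and in the panels of Got1, Got2, Ppat and Cad the wildtype replicates 2 and 3 lie below every OgaVav-Cre point while wildtype replicate 1 (black circle) lies among them or, for Got1, above them.

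Per length of locus, the enzymes fell into 3 tiers. Glutamine synthetase and glutamate dehydrogenase were the most abundant, with mean wildtype levels of 62.3 ± 11.9 RPKM (SD, n = 3) for Glul and 42.4 ± 1.29 RPKM (SD, n = 3) for Glud1, and by their means over all 6 libraries they lay above 95.7 and 94.7% of the loci tested. RPKM, the authors' unit, divides the reads of a locus by its length and by a total for the library. The middle tier held Ppat at 14.9 ± 2.98, Aldh18a1 at 12.2 ± 1.29, Cad at 11.4 ± 2.33, Got2 at 8.25 ± 1.87 and Got1 at 5.74 ± 1.75 RPKM (SD, n = 3 for each). Within it, the wildtype libraries of each enzyme overlapped those of the next in this order. Within a library, however, Ppat was above Aldh18a1, Cad above Got2 and Got2 above Got1 in 6 of 6 libraries, and Aldh18a1 was above Cad in 3 of 6. Gpt2, at 0.893 ± 0.107 RPKM, and Gls2, at 0.168 ± 0.0747 RPKM (SD, n = 3), formed the bottom tier, above 21.3 and 2.67% of the loci by the same measure. Between tiers the wildtype libraries did not overlap, nor did those of Glul and Glud1 or of Gpt2 and Gls2. In OgaVav-Cre cells the means of Glul, 46.1 ± 6.69 RPKM, and of Glud1, 46.7 ± 7.40 RPKM (SD, n = 3), lay side by side. The order depends on the length used. The listed locus of Got2 is 4469 bases long against 2585 exonic bases in GENCODE vM1 (mm9), and that of Glud1 is 3158 against 4089. On the exonic length, a choice made after seeing the data, Got2 had 14.3 ± 3.23 RPKM in wildtype cells (SD, n = 3), between Ppat and Aldh18a1, and Glud1 had 32.7 ± 0.994 RPKM (SD, n = 3).

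**Figure D2:**
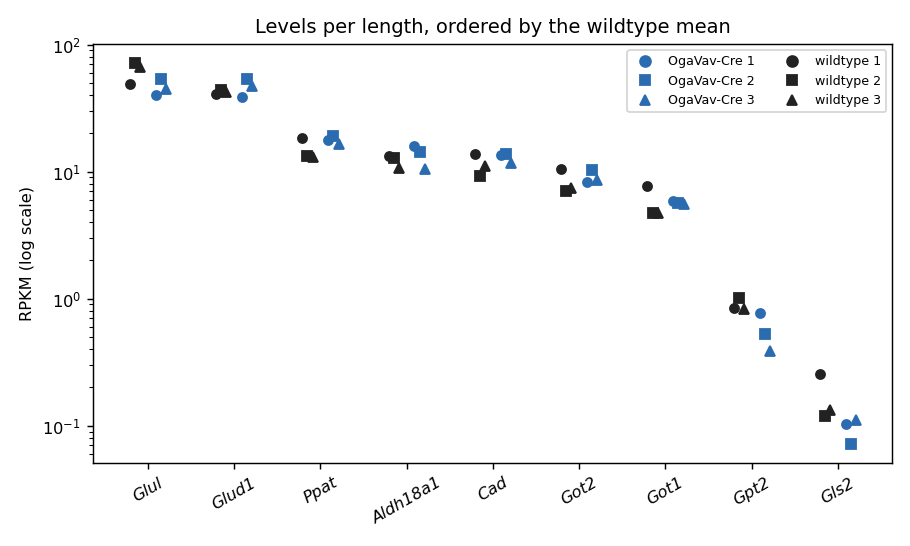
RPKM of each enzyme (vertical axis, log scale) in the 6 libraries, with the enzymes ordered by their mean in wildtype cells. Glul and Glud1 lie near or above 40 RPKM, the 5 enzymes from Ppat to Got1 between 4.72 and 19.2 RPKM, and Gpt2 and Gls2 mostly below 1 RPKM.

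Glul encodes glutamine synthetase, the only enzyme that makes glutamine, from glutamate and ammonia (mm9, chr1:155747074-155756853, plus strand, 10 exons listed). Its level was 172, 209.5 and 173 CPM in mice 1, 2 and 3 of the OgaVav-Cre genotype against 186, 282 and 248 CPM in wildtype mice 1, 2 and 3, the order kept below. The OgaVav-Cre libraries 1 and 3 were below every wildtype library, while OgaVav-Cre 2 exceeded wildtype 1, so the genotypes overlapped. The means were 185 ± 21.5 and 239 ± 48.4 CPM (SD, n = 3), and the log2 fold change was -0.37 (SE 0.179, 95% interval -0.79 to 0.045, unadjusted p of 0.0737, adjusted p = 0.502 by edgeR). It was the largest difference in CPM among the members. Without wildtype 1 it was -0.52, with an unadjusted p of 0.0126 and an adjusted p of 0.265 in edgeR, and without wildtype 2 it was -0.23. The locus is overlapped on the other strand by 5830403L16Rik, over 116 of its exonic bases, with 127 to 212 reads per library against 3868 to 5856 for Glul, and by A930039A15Rik inside it on the same strand, with at most 47 reads.

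Gls2 encodes one of the glutaminases, which release ammonia from glutamine to give glutamate (mm9, chr10:127631513-127647060, plus strand, 21 exons listed). It was barely read, with 11, 8 and 13 reads in the OgaVav-Cre mice against 23, 10 and 13 in the wildtype mice. These raw reads overlapped between the genotypes. Scaled to library size they were 0.488, 0.317 and 0.474 CPM against 1.078, 0.519 and 0.550 CPM, so that all OgaVav-Cre libraries were below all wildtype ones, narrowly at the closest pair. The log2 fold change was -0.74 (SE 0.517, interval -1.94 to 0.46, adjusted p = 0.613 by edgeR), the widest interval among the members. Wildtype 1 stood apart with its 23 reads, and without it the log2 fold change was -0.32. With RPKM and a pseudocount of 0.1 or 1 it was -0.43 or -0.091. Reads in the last exon can also belong to Spryd4, which overlaps the end of Gls2 by 97 bases on the other strand and had 233 to 337 reads. The second locus of the symbol Gls2 lies inside the first on the same strand, over none of its exons, with 0 to 9 reads per library.

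Glud1, the mitochondrial glutamate dehydrogenase that turns glutamate into 2-oxoglutarate and ammonia, lies on chr14:35123913-35158219 (mm9, plus strand, 13 exons listed). It had 154, 195 and 169 CPM in the OgaVav-Cre mice against 145, 159.5 and 146 CPM in the wildtype mice. Only OgaVav-Cre 1 fell below wildtype 2, and the other 2 OgaVav-Cre libraries were above all wildtype libraries. The means were 173 ± 20.9 and 150.4 ± 7.92 CPM (SD, n = 3), with a log2 fold change of 0.20 (SE 0.131, interval -0.10 to 0.50, adjusted p = 0.594 by edgeR). Its interval was the narrowest of the 9. Without OgaVav-Cre 2 the value was 0.11. The table lists a second locus over the same exons, Glud1/Gm3219, with 3160 to 4988 reads against 3075 to 4934 for Glud1, so the reads of the pair cannot be told apart and it was not counted as another gene. A further 432 bases are shared with Fam35a on the other strand.

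Because Glul makes glutamine from glutamate and Glud1 takes glutamate away into the cycle, their levels were also set against each other within each library, a ratio chosen after the values were seen and given without a test. In RPKM, Glul was 1.03, 0.994 and 0.946 times Glud1 in OgaVav-Cre replicates 1 to 3 and 1.19, 1.64 and 1.57 times Glud1 in wildtype replicates 1 to 3. The ratio was lower in every OgaVav-Cre library than in any wildtype library, and for each gene on its own the genotypes overlapped. Of all single loci tested, 17.5% did not overlap between the genotypes. The share among ratios of 2 loci was not counted. On the exonic length every ratio was higher by the same factor, at 1.26 to 1.37 in OgaVav-Cre and 1.58 to 2.17 in wildtype libraries. Wildtype 1 lay closest to the OgaVav-Cre libraries here too.

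Got1 and Got2 are the cytosolic and the mitochondrial aspartate aminotransferase, which swap the amino group of glutamate with oxaloacetate and form, with the carriers and malate dehydrogenases, the malate-aspartate shuttle. Got1 (mm9, chr19:43574242-43599095, minus strand, 9 exons listed) had 18.7, 16.7 and 15.9 CPM in the OgaVav-Cre mice against 22.0, 13.9 and 13.2 CPM in the wildtype mice. The highest and the lowest of the 6 values were both wildtype. Its log2 fold change was 0.065 (SE 0.225, interval -0.46 to 0.59, adjusted p = 0.932 by edgeR), and its sign rested on single libraries, with -0.031 without wildtype 2, -0.071 without wildtype 3, 0.34 without wildtype 1 and 0.0033 without OgaVav-Cre 1. AK144252 overlaps Got1 on the other strand, over 268 of its exonic bases, with 15 to 39 reads per library against 267 to 470 for Got1.

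Got2 (mm9, chr8:98388034-98412447, minus strand, 10 exons listed) had 46.6, 53.1 and 43.5 CPM in the OgaVav-Cre mice against 51.9, 36.0 and 36.2 CPM in the wildtype mice. Wildtype 1 was level with the OgaVav-Cre libraries, where for Got1 it was above them, and wildtype 2 and 3 were below all OgaVav-Cre libraries for both genes. The log2 fold change was 0.21 (SE 0.176, interval -0.20 to 0.62, adjusted p = 0.679 by edgeR). Without wildtype 1 it was 0.41, with an unadjusted p of 0.0233 and an adjusted p of 0.290 in edgeR, and without wildtype 2, wildtype 3 or OgaVav-Cre 2 it was 0.12 to 0.13. In RPKM, Got2 was 1.34 to 1.81 times Got1, or 2.32 to 3.12 times on the exonic length, with overlapping genotypes. A group of 3 loci on the other strand lies over Got2, made up of a second locus of the same symbol (331 shared exonic bases, 28 to 59 reads), AK015358 (434 bases, 133 to 310 reads) and LOC100504011, whose reads of 358 to 709 followed those of Got2. The use of strand in the authors' counting is not stated in the sources used here, and without it these reads cannot be told from those of Got2.

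Gpt2 is the mitochondrial alanine aminotransferase, which makes alanine and 2-oxoglutarate from pyruvate and glutamate (mm9, chr8:88016475-88051459, plus strand, 12 exons listed). Its reads numbered 123, 87 and 68 in the OgaVav-Cre mice against 113, 128 and 121 in the wildtype mice, or 5.45, 3.44 and 2.48 CPM against 5.30, 6.64 and 5.12 CPM. OgaVav-Cre 2 and 3 were below every wildtype library and OgaVav-Cre 1 was above 2 of them. The log2 fold change was -0.59 (SE 0.328, interval -1.35 to 0.18, unadjusted p of 0.114, adjusted p = 0.548 by edgeR). In the authors' RPKM the genotypes just separated, at 0.387 to 0.770 in OgaVav-Cre and 0.825 to 1.02 in wildtype libraries, because the divisor behind RPKM differs from the TMM scaling. The value was -0.94 without OgaVav-Cre 1 (unadjusted p of 0.0211, adjusted p = 0.738 in edgeR) and -0.35 without OgaVav-Cre 3. With the immunoglobulin share as a covariate it was -0.90 (unadjusted p of 0.00895, adjusted p = 0.480 in edgeR), a fit in which 9.08% of all loci had an unadjusted p under 0.05. No other listed locus overlaps Gpt2.

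Aldh18a1 makes the precursor of proline and ornithine from glutamate (mm9, chr19:40624747-40662953, minus strand, 19 exons listed). It had 78.8, 65.8 and 47.4 CPM in the OgaVav-Cre mice against 58.6, 58.3 and 46.9 CPM in the wildtype mice. OgaVav-Cre 1 and 2 were the highest, but OgaVav-Cre 3 was lower than all libraries except wildtype 3. The log2 fold change was 0.23 (SE 0.197, interval -0.23 to 0.69, adjusted p = 0.680 by edgeR). The 2 libraries with the smallest immunoglobulin shares, 1.17 and 1.36% of reads, were also the 2 lowest in Aldh18a1, and that with the largest, 9.88%, was the highest. With this share as a covariate the log2 fold change was 0.052 (unadjusted p of 0.740 in edgeR), and without OgaVav-Cre 1 or wildtype 3 it was 0.053 or 0.13. Without OgaVav-Cre 3 it was 0.41, with an unadjusted p of 0.0345 and an adjusted p of 0.319 in edgeR. Ptp4a1 and LOC100044742 are listed as loci of 1 exon within Aldh18a1, on the same strand but over none of its exons.

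Ppat, amidophosphoribosyltransferase, takes the amide of glutamine to start purine synthesis (mm9, chr5:77342274-77380603, minus strand, 11 exons listed). It had 103, 101 and 85.3 CPM in the OgaVav-Cre mice against 93.8, 70.0 and 65.7 CPM in the wildtype mice. Wildtype 2 and 3 were below all OgaVav-Cre libraries, and wildtype 1 was above OgaVav-Cre 3. The means were 96.5 ± 9.69 and 76.5 ± 15.1 CPM (SD, n = 3), and the log2 fold change of 0.33 was the highest of the 9 (SE 0.163, interval -0.045 to 0.71, unadjusted p of 0.0761, adjusted p = 0.507 by edgeR). Without wildtype 1 it was 0.51, with an unadjusted p of 0.00775 and an adjusted p of 0.244 in edgeR. Ppat and Paics, which carries later steps of the same pathway, start head to head and share 272 bases on opposite strands, and Paics had 4489 to 9470 reads.

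Cad is the multifunctional enzyme that uses glutamine to open pyrimidine synthesis (mm9, chr5:31357153-31380855, plus strand, 44 exons listed), and no other listed locus overlaps it. It had 139, 131 and 109 CPM in the OgaVav-Cre mice against 128, 87.9 and 101 CPM in the wildtype mice. Again wildtype 1 lay among the OgaVav-Cre libraries and wildtype 2 and 3 below them. The means were 127 ± 15.2 and 106 ± 20.4 CPM (SD, n = 3), with a log2 fold change of 0.26 (SE 0.169, interval -0.13 to 0.65, adjusted p = 0.594 by edgeR). Without wildtype 1 it was 0.42, with an unadjusted p of 0.0296 and an adjusted p of 0.301 in edgeR, and without wildtype 2 it was 0.15.

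**Figure D3:**
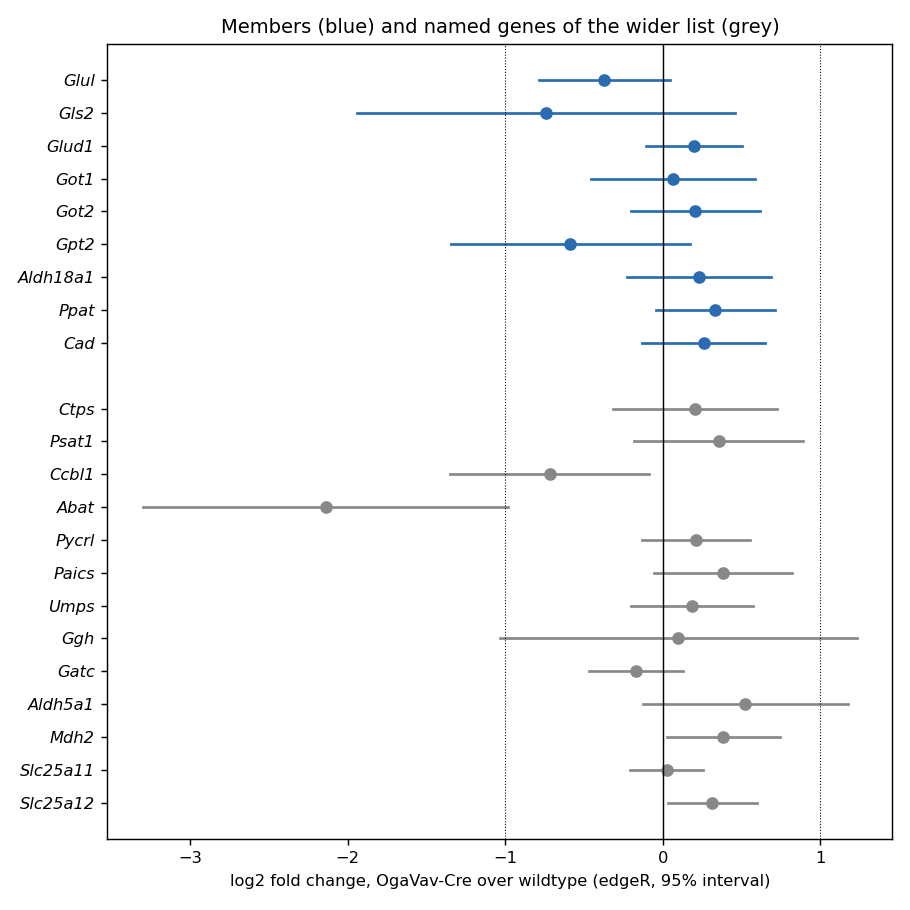
Log2 fold change of OgaVav-Cre over wildtype (horizontal axis, 0 meaning equal levels, dotted lines at a doubling and a halving) with its 95% interval from edgeR, for the 9 enzymes (blue) and the named genes of the wider list (grey). All 9 blue intervals cross 0, and of the grey ones those of Ccbl1, Abat, Mdh2 and Slc25a12 do not.

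Seen by library, 4 enzymes shared a pattern over the wildtype libraries. Got1, Got2, Ppat and Cad were lowest in wildtype 2 and 3, with log2 CPM 0.18 to 0.38 below their own means over the 6 libraries, and above those means in wildtype 1, by 0.14 to 0.42. Over the 6 libraries Pearson's r was 0.93 between Got2 and Ppat, 0.92 between Ppat and Cad and 0.89 between Got2 and Cad. For Got1 it was 0.85 with Got2, 0.81 with Ppat and 0.79 with Cad. These are a description over libraries that share their scaling, and other pairs of loci were not set beside them. Glul ran the other way, with r of -0.70 to -0.79 to these 4. Aldh18a1 went partly with the 4, at r of 0.51 to 0.71 and a rank correlation (Spearman's rho) of 0.66 to 0.94. Leaving out wildtype 1 brought 4 of the 9 enzymes, Glul, Got2, Ppat and Cad, to an unadjusted p under 0.05 in edgeR, where 14.5% of all loci were, but none was called. Without OgaVav-Cre 3 there were 2, Aldh18a1 and Ppat, against 14.3% of all loci, and without OgaVav-Cre 1 there was 1, Gpt2, against 6.51%. Leaving out any of the other 3 libraries brought none there. The levels of plasma and B cell genes in wildtype 1 lay within the range of the other libraries for plasma cell genes and second highest for B cell precursor genes, at 1012 CPM summed. With that B cell level as a covariate, Glul and Gpt2 had an unadjusted p under 0.05 in edgeR, as 13.7% of all loci did, and neither was called.

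**Figure D4:**
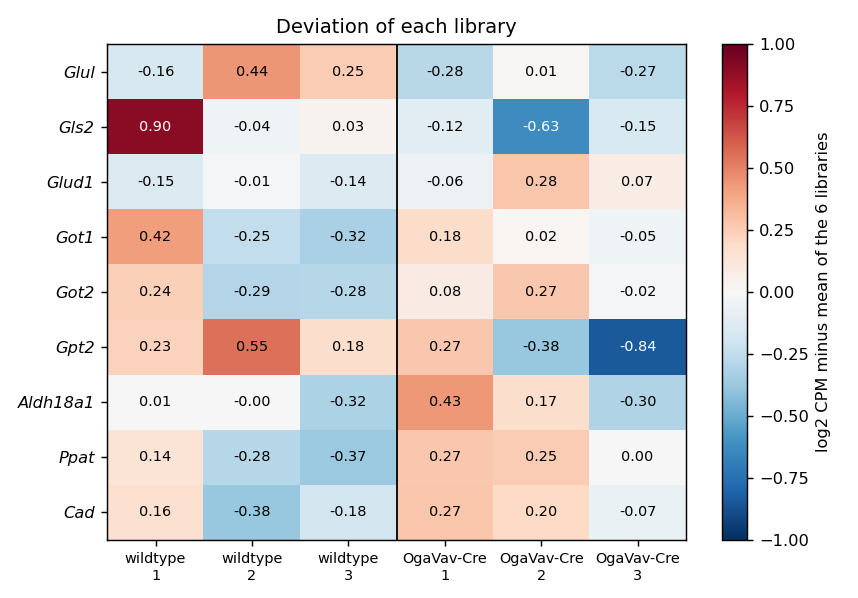
Log2 CPM of each enzyme (rows) in each library (columns, wildtype left and OgaVav-Cre right of the line) minus its mean over the 6 libraries, printed in each cell and coloured from blue (below) to red (above). In the rows of Got1, Got2, Ppat and Cad, wildtype 2 and 3 are blue and wildtype 1 is red, and Gls2 in wildtype 1 (0.90) and Gpt2 in OgaVav-Cre 3 (-0.84) lie farthest from their means.

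**Figure D5:**
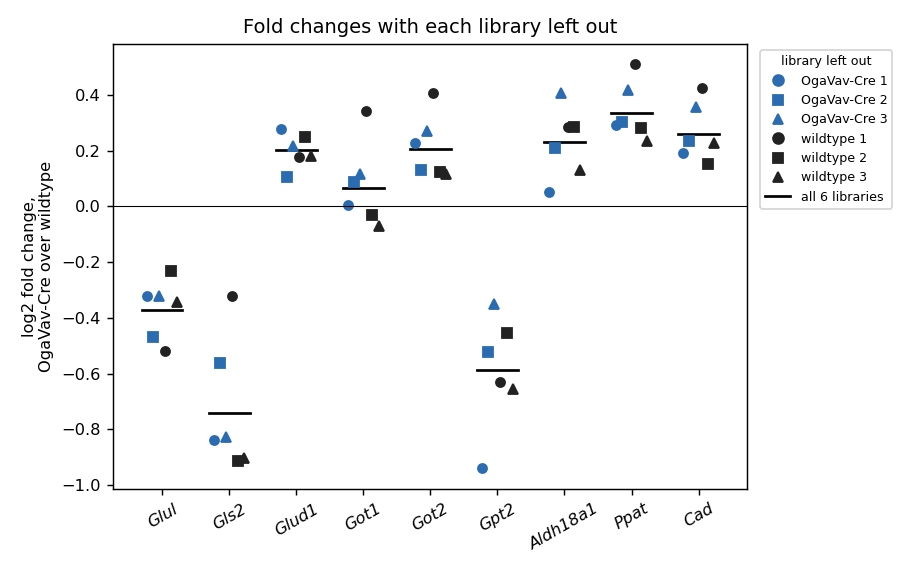
Log2 fold change of OgaVav-Cre over wildtype (vertical axis) for each enzyme with all 6 libraries (line) and with the library given by colour and shape left out (points). Only the points of Got1 fall on both sides of 0, and the points without wildtype 1 (black circles) lie above the line for Got1, Got2, Ppat and Cad.

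The promoters of 8 of the 9 enzymes, all but Gls2, were matched in RefSeq (GRCm38.p6), as 250 bases before and 50 bases after the start. They were searched on both strands for CACGTG, the E-box bound by Myc and related factors, and for TGATGNAA, the composite site of C/EBP and ATF factors such as Atf4. The E-box was in 7.15% of 32851 promoters and the composite in 3.97%. Among the enzymes each was in 1 of 8, the E-box in Aldh18a1, 59 bases before the start, and the composite in Got1, 102 bases before the start. Neither was in the windows of Glul, Glud1, Got2, Gpt2, Ppat or Cad. Both matches are shown with their surroundings, 5′ to 3′ in the direction of the gene with the motif in capitals. A match is only a description of the letters, and its bearing on the levels was not tested. In Got1 the composite lies on the opposite strand, so in the direction of the gene it reads TTNCATCA.
Aldh18a1, chr19:40588497-40588542 (GRCm38.p6, minus strand): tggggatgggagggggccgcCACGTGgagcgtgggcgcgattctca
Got1, chr19:43524680-43524727 (GRCm38.p6, minus strand): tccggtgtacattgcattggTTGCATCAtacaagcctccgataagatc

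Among all loci with a mean of at least 10 CPM, 11876 in number, the locus whose log2 CPM was most like that of each member over the 6 libraries was found by Pearson's r. For Glud1 it was Glud1/Gm3219 (r = 0.998) and for Got2 it was LOC100504011 (r = 0.998), the loci that overlap them. For the rest it was Cdc23 for Got1, Fkbp1a for Ppat, Crocc for Cad, E130218I03Rik for Aldh18a1, AK152359 for Glul, Fam120a for Gls2 and AK034112 for Gpt2, with r of 0.983 to 0.999. With 6 libraries and so many loci, an r of this size was found for every member.

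A wider list of 53 genes took in other enzymes and carriers of glutamine and glutamate. Of these, 49 were tested, and Tat, Aadat, Got1l1 and Gad2 had too few reads. No gene of the 49 was called, 35 had a log2 fold change above 0 and 14 below, and their median was 0.10. An unadjusted p under 0.05 was reached by 4 of the 49, against 10.6% of all loci. The genotypes did not overlap for 5 of the 49, 3 higher and 2 lower in OgaVav-Cre, against 17.5% of all loci.

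By role, the other glutamine amidotransferases were evenly spread, with 5 of 8 above 0. The most abundant per length, Ctps (CTP synthase), had a log2 fold change of 0.20 (adjusted p = 0.753 by edgeR). Of the purine enzymes after Ppat, 7 of 8 lay above 0, with a median of 0.25. Paics was the most abundant of them, with 295, 375 and 266 CPM in the OgaVav-Cre mice against 286, 233 and 199 CPM in the wildtype mice, and a log2 fold change of 0.38 (SE 0.188, adjusted p = 0.508 by edgeR). As with Ppat, wildtype 1 was level with the OgaVav-Cre libraries, and the pair share 272 bases. After Cad in pyrimidine synthesis, Umps had a log2 fold change of 0.19 (adjusted p = 0.695 by edgeR).

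The glutamate aminotransferases held 2 of the 4 genes with an unadjusted p under 0.05. Abat, which breaks down GABA by passing its amino group to 2-oxoglutarate, had 5, 14 and 7 reads in the OgaVav-Cre mice against 26, 37 and 35 reads in the wildtype mice, or 0.222, 0.554 and 0.255 against 1.22, 1.92 and 1.48 CPM. The genotypes did not overlap, and the log2 fold change was -2.14 (SE 0.499, interval -3.30 to -0.98, unadjusted p of 0.0029, adjusted p = 0.384 by edgeR). It was -1.92 to -2.66 with each library left out in turn. Abat met the filter on low counts through its wildtype reads and was named for its p. Its separation and these values are therefore a description and no further support. Ccbl1, a kynurenine and glutamine aminotransferase, had 5.94, 5.46 and 3.87 CPM against 6.14, 9.54 and 9.39 CPM, a log2 fold change of -0.72 (SE 0.272, unadjusted p of 0.0311, adjusted p = 0.445 by edgeR). Psat1, the serine synthesis aminotransferase and the most abundant of the group by mean RPKM over the 6 libraries, though below Oat in the wildtype mean, had a log2 fold change of 0.36 (adjusted p = 0.592 by edgeR).

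The other 2 of the 4 belonged to the malate-aspartate shuttle that Got1 and Got2 serve, and both were higher in every OgaVav-Cre library. Mdh2, the mitochondrial malate dehydrogenase, had 101, 108 and 97.0 CPM in the OgaVav-Cre mice against 95.8, 69.8 and 68.1 CPM in the wildtype mice, a log2 fold change of 0.39 (SE 0.155, unadjusted p of 0.0389, adjusted p = 0.453 by edgeR). Slc25a12, the aspartate-glutamate carrier, had 71.2, 79.7 and 73.1 CPM against 55.1, 67.7 and 57.2 CPM, a log2 fold change of 0.32 (SE 0.123, unadjusted p of 0.0338, adjusted p = 0.446 by edgeR). For Mdh2, wildtype 1 was again close to the OgaVav-Cre libraries and well above the other wildtype libraries. Slc25a11, the 2-oxoglutarate carrier of the same shuttle, stayed at 69.9 to 74.4 CPM throughout.

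In proline metabolism, Pycrl had 21.7, 26.9 and 21.9 CPM in the OgaVav-Cre mice against 19.7, 19.8 and 21.3 CPM in the wildtype mice, without overlap (log2 fold change 0.21, adjusted p = 0.614 by edgeR). Ggh, which trims glutamates from folates, varied widely within both genotypes, with 52.7, 32.7 and 15.9 CPM against 22.7, 51.8 and 20.01 CPM. Its order over the libraries was the same as that of the immunoglobulin share. The part of plasma cells in it was not tested beyond the covariate, with which its log2 fold change went from 0.10 to -0.39. Gatc of tRNA charging, at -0.17, and Aldh5a1 of the GABA branch, at 0.53 with overlapping libraries, had adjusted p-values of 0.644 and 0.533 in edgeR.

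Slc1a5, the importer that brings glutamine to these enzymes, had 95.9, 119 and 90.5 CPM in the OgaVav-Cre mice against 31.0, 29.5 and 39.9 CPM in the wildtype mice. It was called higher (log2 fold change 1.603, SE 0.167, adjusted p = 0.0466 by edgeR), though its adjusted p was 0.112 to 0.227 without any 1 of the libraries other than OgaVav-Cre 3, while the log2 fold change stayed at 1.48 to 1.75. The interval of Slc1a5, 1.22 to 1.99, lay above the upper bounds of all 9 enzymes, which ended at 0.71 or below. Slc1a5 was the 1 locus of 22032 called higher, and it was named with earlier results of these data known. The contrast is therefore a description and no test of import against the later steps.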

How the data were processed

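Poly(A) RNA of LSK cells was sequenced as single-end reads of 50 bp. The authors used Genomatix for alignment to mm9 and for the summary per locus (the submitters' processing notes also name CASAVA 1.8.2). Versions of the aligner and annotation, and the use of strand, are not given in the sources used here. The deposited table holds counts, raw whole reads per locus and library, and RPKM, which the authors derived from the reads, the locus length and 1 divisor per library. The deposited locus length in bases was used to choose the longest locus of a symbol, to derive the RPKM divisor and to rescale RPKM to the exonic length. Columns with the authors' own normalized expression, fold changes and p-values were not used.

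The test was that of edgeR 4.0.16 under R 4.3.3, over 22032 of 53445 loci with Benjamini-Hochberg adjustment. Scaling was by TMM, and the filter was filterByExpr by genotype. Dispersions came from estimateDisp, and glmQLFit was run with legacy = TRUE before glmQLFTest. A locus was called at an adjusted p under 0.05 and an absolute log2 fold change above 1. The biological coefficient of variation was 0.308. Labels gave the genotype and replicate number, and 1 library was taken as 1 mouse. Replicate numbers were not taken to pair the libraries, since same-numbered deviations correlated at -0.081, 0.26 and 0.32 and not all were above 0.1.

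Alternatives were RLE size factors, no filter, a minimum of 10 reads per library, DESeq2 1.42.0 (the Wald test named in the methods), limma-voom and limma-trend on RPKM with pseudocounts of 0.1 and 1 (limma 3.58.1), legacy = FALSE, a robust dispersion, a block for the replicate number, leaving out each library, the adjusted p alone and the immunoglobulin share as a covariate. The summed B cell precursor level as a covariate, and GENCODE vM1 exon lengths for the levels, were added after seeing the data. The enzymes, the lists and the tests were chosen with earlier results of these data known. Named genes are the 9 enzymes, Mgea5, Slc1a5, genes of the wider list called or at an unadjusted p under 0.05, the most abundant of each role group in RPKM, overlapping loci and the most similar locus. Ly6a, Ly6g, Cd4, Ncr1, Cxcl12 and Oat were named after their values were seen. The fits were tested on simulated data with known changes. A gene of the wider list is not reported here. Floors cover counting error only. Python 3.11.15 with matplotlib 3.10.9, pandas 2.3.3, scipy 1.17.1 and numpy 2.4.6 served for tables and plots.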

Additional observations from a re-analysis of the deposited data

How the results depend on the processing

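None of the 9 enzymes and none of the 49 genes of the wider list tested was called under any alternative run. Of 161 values of the enzymes under the alternatives, 159 kept their sign and side of the threshold. Got1 turned to -0.031 without wildtype 2 and -0.071 without wildtype 3, with a range of -0.071 to 0.34 over the libraries left out. Gls2 could not be tested with at least 10 reads in every library. The median log2 fold change of the 9 lay between 0.052 and 0.29 over the alternatives, and between 0.053 and 0.29 with each library left out.

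Of the other named genes, Ggh turned to -0.38 without OgaVav-Cre 1, -0.086 without wildtype 1, -0.14 without wildtype 3, -0.39 with the immunoglobulin share and -0.15 with the B cell level as covariate, and ranged from -0.38 to 0.66 over the libraries left out. Slc25a11 turned to -0.042 and -0.041 with the RPKM pseudocounts of 0.1 and 1. Slc1a5 also lost its call with at least 10 reads, limma-voom, the block, RPKM and the immunoglobulin covariate.

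Over all loci, 1 was called higher and 6 lower, against 4 and 17 with no filter, 35 and 82 with DESeq2, 3 and 10 with the B cell covariate, 2 higher with the immunoglobulin covariate, and 0 higher with at least 10 reads, limma-voom or RPKM. Leaving out each library gave 0 to 3 higher and 3 to 6 lower. The cause was not tested.

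With the replicate number as a block, 2 loci were called higher and 4 lower. Glul (-0.36) and Ppat (0.35) then had unadjusted p-values of 0.0332 and 0.0309 in edgeR, as 12.4% of all loci were under 0.05, with adjusted p-values of 0.376 and 0.372. OgaVav-Cre 2 and 3 correlated best with the wildtype library of their own number, at 0.26 and 0.32, and OgaVav-Cre 1 with wildtype 2, at 0.21 against -0.081 with its own, so not every pair of numbers deviated together.

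Depth limits Gls2, at 8 to 23 reads per library, and Abat, at 5 to 37 reads. Where strand was not used in counting, reads of overlapping loci cannot be told apart.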

Other observations

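Some genes of the wider list outside the naming rule were looked at after their values were seen. Pycr1, which completes proline synthesis after Aldh18a1, had 24.4 CPM in OgaVav-Cre 1, the library with the largest immunoglobulin share, and as little as 3.76 CPM in the others, with a log2 fold change of 0.87 and an adjusted p of 0.650 in edgeR. Bcat1, a branched-chain aminotransferase, ranged from 2.90 to 28.3 CPM over the 6 libraries (log2 fold change 0.50, adjusted p = 0.815 by edgeR). Asns, asparagine synthetase, ranged from 7.91 to 22.7 CPM with a log2 fold change of 0.02 (adjusted p = 0.992 by edgeR). Gad1, which makes GABA from glutamate, ranged from no reads to 5.25 CPM (adjusted p = 0.688 by edgeR). None of these 4 was called.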
